A study of Mus musculus with 12 samples.

Results

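Cartilage genes other than collagens are a group of 9 genes: Acan, Sox9, Matn1, Matn3, Comp, Hapln1, Cnmd, Cytl1 and Chil1. All 9 were measured, among 19937 named genes on the array, each by 1 probe set with 1 gene symbol. They were selected on measured values of these arrays, namely the difference between osteoblasts of tumor-bearing and tumor-free mice, the difference between endothelial cells and osteoblasts of tumor-free mice, and the spread between tumor-free osteoblast arrays. Those values are therefore a description here and carry no test. The difference between endothelial cells of tumor-bearing and tumor-free mice was not itself used to choose them and was tested, though its 3 tumor-free arrays also enter the cell type difference that was.

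The study profiled bone stroma in an immunodeficient mouse strain (NOD SCID, females) with or without bone metastases of human breast cancer. Mice labelled tumor-bearing were given 200000 MDA-MB231 scp1833 cells intracardially, and the bones were taken after about 2 weeks of growth. From the long bones of both kinds of mice, GFP-TR119-CD45-SCA1-CD31-CD51+ cells were sorted as osteoblasts, the cells that make bone, and GFP-TR119-CD45-SCA1+CD31+ cells as endothelial cells, which line blood vessels. Each of the 4 groups (osteoblasts of tumor-free mice, osteoblasts of tumor-bearing mice, and endothelial cells of each) holds 3 arrays, which the labels call biological replicates. The number of mice behind an array is not known here, and p-values set a difference between groups only against the spread between such arrays. Values are log2 expression, on which a difference of 1 is a doubling, and array medians lay between 5.21 and 5.41.

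Cartilage is built by chondrocytes, which in long bones form the growth plate and the joint surface next to the bone that osteoblasts lay down. SOX9 is the transcription factor that directs the chondrocyte program, and it works with SOX5 and SOX6. Aggrecan, the product of Acan, is the large proteoglycan that holds water in cartilage, and the link protein encoded by Hapln1 fastens it to hyaluronan. The matrilins of Matn1 and Matn3 and the cartilage oligomeric matrix protein of Comp join collagen fibrils to other matrix parts. Chondromodulin, the product of Cnmd, is a cartilage glycoprotein that inhibits blood vessel growth. Cytl1 encodes a secreted cytokine-like protein of cartilage, and Chil1 a secreted chitinase-like glycoprotein made by chondrocytes and also by other cells, macrophages among them.

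RefSeq promoter windows (GRCm38.p6, 250 bases before to 50 after the annotated start) were at hand for 7 of the 9 genes, all but Sox9 and Comp. Those of Acan and Matn3 are shown for the genes on which tumor-free osteoblast replicate 1 matched the tumor-bearing arrays, and those of Cytl1 and Chil1 for the pair on which it did not. Capitals mark the SOX motif core ACAAT, the SOX motif ACAAAG and the GC box GGGCGG, searched on both strands.
Acan, chr7:79052976-79053275, plus strand: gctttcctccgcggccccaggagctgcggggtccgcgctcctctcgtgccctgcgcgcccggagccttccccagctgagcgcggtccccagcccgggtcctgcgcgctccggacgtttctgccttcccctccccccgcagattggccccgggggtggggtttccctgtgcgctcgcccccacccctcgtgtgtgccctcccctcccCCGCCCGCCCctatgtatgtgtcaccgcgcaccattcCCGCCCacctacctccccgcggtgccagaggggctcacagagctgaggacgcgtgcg
Matn3, chr12:8947679-8947978, plus strand: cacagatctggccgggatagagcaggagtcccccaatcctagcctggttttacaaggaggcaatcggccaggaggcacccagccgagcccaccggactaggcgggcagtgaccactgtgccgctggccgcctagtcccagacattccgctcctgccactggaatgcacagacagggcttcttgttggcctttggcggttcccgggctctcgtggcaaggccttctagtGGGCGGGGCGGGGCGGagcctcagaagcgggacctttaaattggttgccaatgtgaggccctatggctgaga
Cytl1, chr5:37735269-37735568, plus strand: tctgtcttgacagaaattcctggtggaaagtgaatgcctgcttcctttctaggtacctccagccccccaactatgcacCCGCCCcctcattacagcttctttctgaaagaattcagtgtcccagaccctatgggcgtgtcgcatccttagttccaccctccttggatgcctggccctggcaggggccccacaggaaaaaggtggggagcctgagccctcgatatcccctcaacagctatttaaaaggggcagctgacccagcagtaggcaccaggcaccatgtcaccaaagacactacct
Chil1, chr1:134181906-134182205, plus strand: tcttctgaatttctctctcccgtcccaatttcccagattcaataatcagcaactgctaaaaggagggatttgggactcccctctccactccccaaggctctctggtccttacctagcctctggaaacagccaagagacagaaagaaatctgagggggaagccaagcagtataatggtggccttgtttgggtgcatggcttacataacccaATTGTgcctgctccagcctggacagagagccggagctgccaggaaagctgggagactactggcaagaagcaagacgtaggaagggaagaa
GGGCGG was found in 4 of the 7 windows (Acan, Matn1, Matn3 and Cytl1), and 35.7% of all 32851 windows hold it. ACAAT was found in those of Hapln1 and Chil1, against 31% of all windows. ACAAAG (18.7% of all windows), AACAAT, which overlaps ACAAT (10.7%), the TATA box TATAAA (13.6%) and the AP-1 motif TGANTCA (7.81%) were in none of the 7. G and C made up 74% of the Acan window, 62.7% of that of Matn3, 55% of that of Cytl1 and 51.3% of that of Chil1, around a median of 52.7% over all windows. A match describes the letters only, and a motif that was not found says nothing about the factor.

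In osteoblasts 8 of the 9 genes stood at 9.49 or above on all 3 arrays of tumor-bearing mice, Matn1 being lower and more variable. For Acan, Hapln1, Cnmd and Matn3 the tumor-free arrays spread from near that level down to endothelial values. Cytl1 also fell that low, but its highest tumor-free value was 8.59, and that of Chil1 7.93. Comp, Sox9, Matn1 and Chil1 stayed above every endothelial array. The mean of the 9 genes was 9.97, 10.51 and 10.37 on tumor-bearing osteoblast replicates 1, 2 and 3, and in tumor-free osteoblasts it was 9.60, 8.07 and 5.82. In endothelial cells it lay between 5.18 and 5.49 in tumor-bearing mice and stood at 5.22, 4.88 and 6.13 on tumor-free replicates 1, 2 and 3. In such sorted pools, fewer cells that express a gene and less RNA per cell cannot be told apart.

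**Figure D1:**
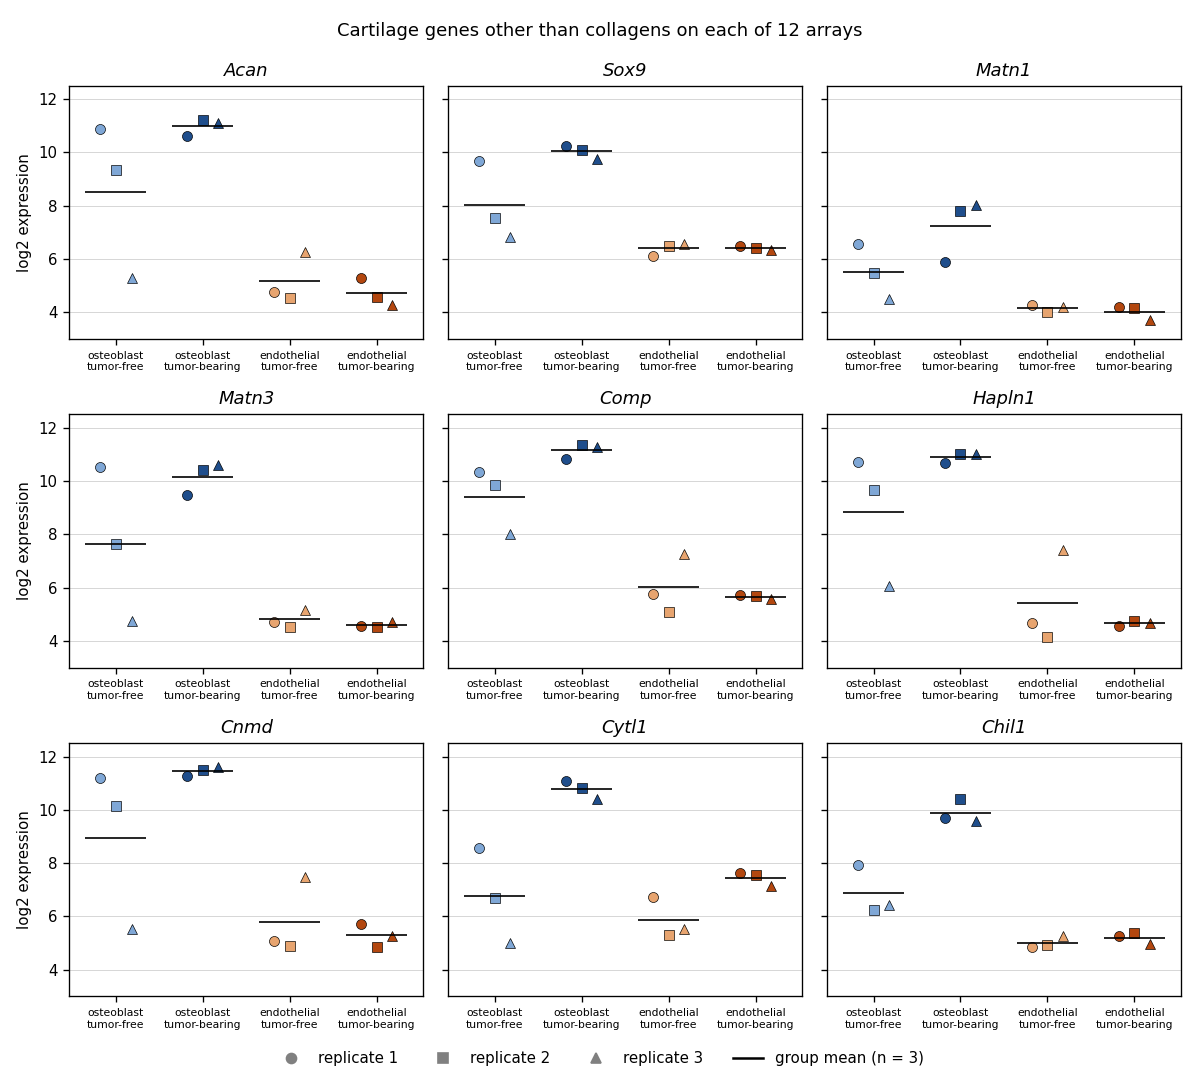
Log2 expression of each of the 9 genes on the 12 arrays, with symbols for the replicate and a line for the mean of 3 arrays. Tumor-bearing osteoblasts are at 9.49 or above for every gene but Matn1 (5.87 to 8.03), tumor-free osteoblasts are spread out (Acan from 5.26 to 10.88), and endothelial arrays lie between 3.70 and 7.63.

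The proteoglycan core and its link protein varied widely between tumor-free arrays. Acan stood at 10.60, 11.19 and 11.10 in tumor-bearing osteoblasts and at 10.88, 9.35 and 5.26 in tumor-free ones. Hapln1 stood at 10.68, 11.00 and 11.00 in tumor-bearing and at 10.72, 9.68 and 6.08 in tumor-free osteoblasts. For both genes tumor-free replicate 1 lay within the tumor-bearing range, so the groups overlap, and replicate 3 lay far below. The group means of Acan were 10.97 ± 0.32 and 8.50 ± 2.90 (SD, n = 3 each), a log2 difference of 2.47 ± 1.09 (SE) or 5.54-fold. For Hapln1 they were 10.89 ± 0.19 and 8.83 ± 2.43, a difference of 2.07 ± 1.06 or 4.19-fold. Measured against single tumor-free arrays, the tumor-bearing mean of Acan was 1.06-fold, 3.07-fold and 52.1-fold higher than replicates 1, 2 and 3, a range set by the tumor-free array.

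Cnmd and the matrilins had a like spread. Cnmd stood at 11.27, 11.48 and 11.60 in tumor-bearing and at 11.19, 10.13 and 5.54 in tumor-free osteoblasts. Its tumor-free replicate 1 lay just below the lowest tumor-bearing array, so the groups do not overlap, and replicate 3 was 60-fold below the tumor-bearing mean. Matn3 stood at 9.49, 10.42 and 10.59 in tumor-bearing and at 10.54, 7.65 and 4.75 in tumor-free osteoblasts. It is the 1 gene of the 9 for which a tumor-free array, replicate 1, was above the tumor-bearing mean (10.17 ± 0.60, SD). Matn1 stood at 5.87, 7.79 and 8.03 in tumor-bearing and at 6.58, 5.46 and 4.51 in tumor-free osteoblasts. Here the tumor-bearing arrays varied as well, with replicate 1 below tumor-free replicate 1. The log2 differences were 2.49 ± 1.18 for Cnmd, 2.52 ± 1.05 for Matn3 and 1.71 ± 0.57 for Matn1 (SE).

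Sox9 and Comp were higher on every tumor-bearing osteoblast array than on any tumor-free one. Sox9 stood at 10.24, 10.09 and 9.76 in tumor-bearing and at 9.66, 7.54 and 6.82 in tumor-free osteoblasts. Comp stood at 10.82, 11.37 and 11.28 in tumor-bearing and at 10.34, 9.86 and 8.01 in tumor-free osteoblasts. In both, tumor-free replicate 1 lay closest below the tumor-bearing arrays. The log2 differences were 2.02 ± 0.54 for Sox9 (4.06-fold) and 1.76 ± 0.60 for Comp (3.38-fold).

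Cytl1 and Chil1, the secreted signaling or lectin-like proteins of the group, differed from the matrix genes in that tumor-free replicate 1 also lay well below the tumor-bearing arrays. Cytl1 stood at 11.08, 10.83 and 10.41 in tumor-bearing and at 8.59, 6.68 and 5.01 in tumor-free osteoblasts. Chil1 stood at 9.71, 10.39 and 9.59 in tumor-bearing and at 7.93, 6.25 and 6.44 in tumor-free osteoblasts. The tumor-bearing mean was 4.55-fold above tumor-free replicate 1 for Cytl1 and 3.90-fold above it for Chil1, against 1.06-fold to 1.77-fold for Acan, Sox9, Matn1, Comp, Hapln1 and Cnmd and 1.30-fold below it for Matn3. The group differences were 4.02 ± 0.71 for Cytl1 (16.2-fold) and 3.02 ± 0.39 for Chil1 (8.12-fold). This split of the group was drawn after its values were seen and was not tested.

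**Figure D2:**
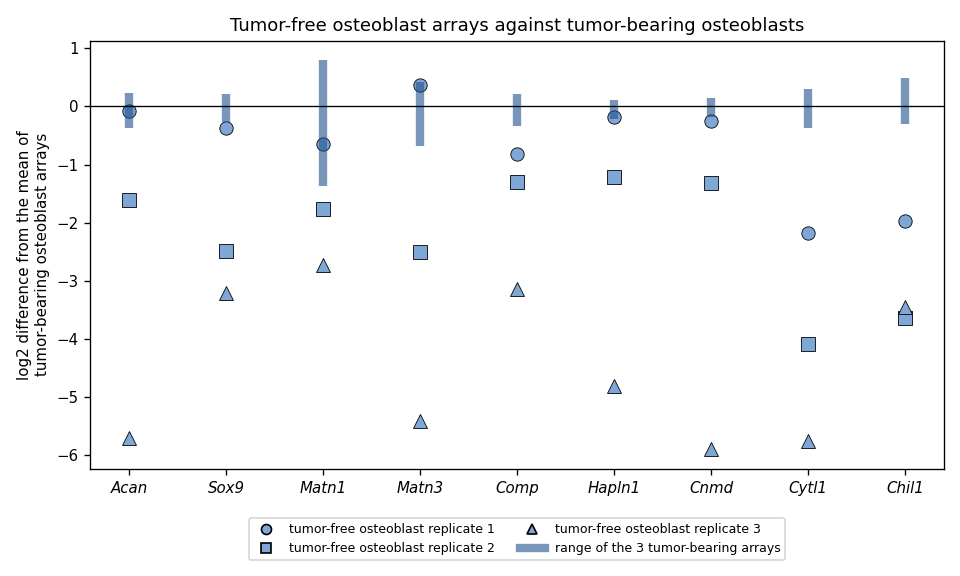
Log2 distance of each tumor-free osteoblast array from the mean of the 3 tumor-bearing osteoblast arrays, with a bar for the range of those 3. Replicate 1 sits in or close to the bar for Acan, Sox9, Matn1, Matn3, Hapln1 and Cnmd and 2.19 and 1.97 below the mean for Cytl1 and Chil1.

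Over the 9 genes the median log2 difference between tumor-bearing and tumor-free osteoblasts was 2.47, and over the 12430 genes tested it was -0.0014. All 9 differences were above 0, and 2 genes, Cytl1 and Chil1, passed an adjusted p of 0.05 (limma, Benjamini-Hochberg over all genes), where 4.01% of tested genes were called higher and 4.59% in either direction. For 5 of the 9 the array ranges were apart (Sox9, Comp, Cnmd, Cytl1 and Chil1), against 12.3% of tested genes that were higher without overlap. Since this contrast chose the genes, nothing is read from these counts. Without tumor-free osteoblast replicate 1 the folds ranged from 4.67 for Comp to 30.5 for Cytl1, and 7 of the 9 were called, while calls over all tested genes went from 570 to 1547. Without replicate 3 they ranged from 1.62 for Hapln1 to 8.82 for Cytl1, with 2 of the 9 and 360 of all tested genes called. Without replicate 2 they ranged from 3.22 for Matn1 to 15.7 for Cytl1, with 2 of the 9 and 864 of all tested genes called. With any 1 of the 12 arrays left out, 1 to 7 of the 9 were called, beside 100 to 1547 of all tested genes. The 1 was Chil1, in the fit without tumor-bearing osteoblast replicate 2, which called 100 genes. With array weights 5 of the 9 and 659 of all tested genes were called. With only the osteoblast arrays in the fit 0 of the 9 were, as for all tested genes (1820 of them with an unadjusted p under 0.05, limma). Matn1 and Matn3 entered the test only through the tumor-bearing osteoblast arrays, where they are high, so their calls support nothing.

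The spread within tumor-free osteoblasts was wide for these genes. It is among the values that chose them, so its rank among all genes is a description. The median SD of the 9 over the 3 arrays was 1.79 there and 0.319 in tumor-bearing osteoblasts, beside 0.328 and 0.219 over all tested genes. Of all tested genes 0.0563% had a larger SD in tumor-free osteoblasts than Cnmd, 0.0805% than Acan, 0.0885% than Matn3, 0.249% than Hapln1, and 11.6% than Chil1, the least variable of the 9. Tumor-free replicate 1 was the highest of the 3 for all 9 genes, and replicate 3 the lowest for 8, Chil1 being the exception. Replicate 1 exceeded replicate 3 by 55.3-fold for Matn3, 50.3-fold for Cnmd, 49.1-fold for Acan, 24.9-fold for Hapln1 and 2.81-fold for Chil1. Replicate 1 was above replicate 2 and replicate 2 above replicate 3 for 8 of the 9 genes and for 19% of all tested genes.

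Other gene lists moved across the same arrays, and their part in these differences was not tested. Taking the tumor-free osteoblast replicates in the order 1, 2, 3, the mean of 8 cartilage collagen genes was 8.75, 8.15 and 7.45, and that of 17 other cartilage matrix genes 8.84, 7.46 and 6.13. The mean of 8 osteoblast markers was 8.14, 9.39 and 9.04 on those arrays and between 8.72 and 8.97 in tumor-bearing osteoblasts. Col1a1, a chain of the type I collagen of bone, stood at 8.40, 11.29 and 11.34 on tumor-free replicates 1, 2 and 3. It was lowest on replicate 1, but not every marker was. Of the 8 markers 3 were lowest on replicate 3, among them Alpl (9.91, 9.96 and 9.62) and Dmp1 (7.90, 9.63 and 7.48). Ibsp varied little (11.62, 11.91 and 11.97). The mean of 16 hematopoietic markers was 5.65, 8.12 and 7.74 in tumor-free osteoblasts and 6.84, 6.79 and 5.38 in tumor-bearing mice. Of the 13 tested none passed in the osteoblast tumor comparison (2 had an unadjusted p under 0.05, limma). Ptprc, which encodes CD45 and marks blood cells, stood at 4.92, 8.46 and 6.41 in tumor-free osteoblasts. On the same arrays Lyz2 stood at 5.57, 9.96 and 9.94, and Tyrobp at 6.48, 10.78 and 10.76. Of the 16 markers 1 was highest on tumor-free replicate 1. Elane and Klf1, markers of neutrophil and red cell precursors, were too low to be tested. They stood between 4.65 and 5.72 (Elane) and between 5.05 and 6.07 (Klf1) on the osteoblast arrays. Immediate early genes, a class switched on quickly by stimuli and by handling of tissue, had a mean of 9.15, 8.63 and 8.13 on the tumor-free and 9.71 to 9.82 on the tumor-bearing arrays. Of these 11 genes 3 were called higher in osteoblasts of tumor-bearing mice, where 4.01% of all tested genes were.

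**Figure D3:**
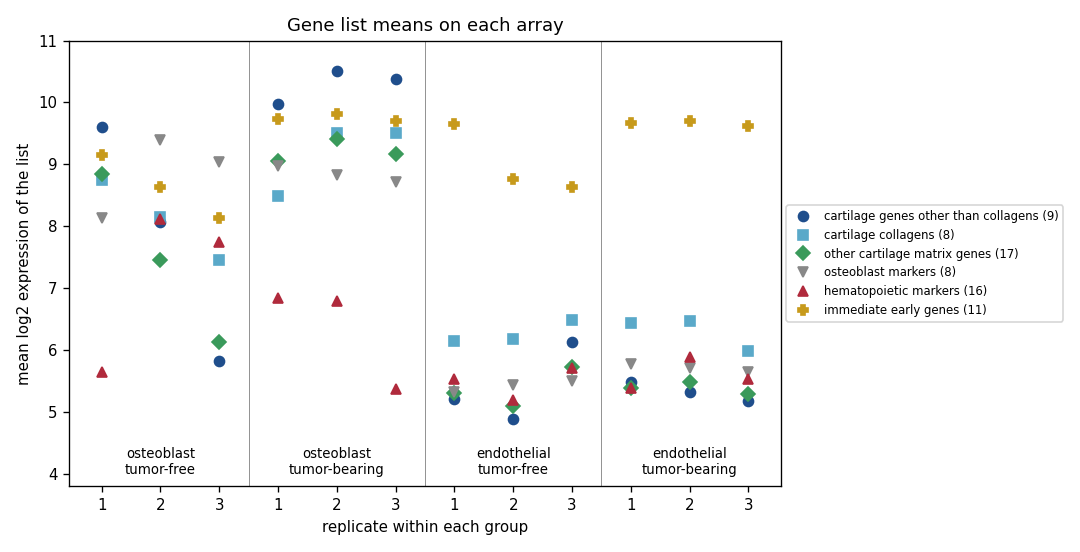
Mean log2 expression of 6 gene lists on each of the 12 arrays, with the number of measured genes in brackets. Among tumor-free osteoblast arrays the cartilage lists are highest and the hematopoietic markers lowest (5.65) on replicate 1, and on endothelial arrays the cartilage lists lie between 4.88 and 6.49.

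The sort was checked against marker lists. All 10 endothelial markers were higher in endothelial cells in both tumor-free and tumor-bearing mice, and all 7 osteoblast markers tested were lower there (limma, adjusted p under 0.05). Of the 12430 genes tested, 2266 were called higher and 1584 lower in endothelial cells of tumor-free mice, and 1010 and 844 in tumor-bearing mice. All 6 fibroblast markers were also called lower there in tumor-free mice, and 5 in tumor-bearing mice. So were 5 of 13 hematopoietic markers tested in tumor-free mice, and 0 in tumor-bearing mice. Mepe, a marker of embedded bone cells, was near the bottom of the scale on every array and was not tested. Runx2 and Bglap2 were not analysed here.

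The rest of the cartilage program was read from 4 lists. These lists were chosen with earlier results of these data known, and the contrast is the one that chose the members. The adjusted p-values given for list genes are therefore a description and no independent support. Of 8 cartilage collagens tested, 2 were higher in osteoblasts of tumor-bearing mice and none lower, with a median difference of 0.97. Of all tested genes 4.01% were called higher. Col2a1, the main collagen of cartilage, rose from 8.27 to 10.19 (3.79-fold, adjusted p = 0.0194, limma), and Col9a2, a chain of the type IX collagen on its surface, rose 2.25-fold (adjusted p = 0.0357). Over the fits that each drop 1 array, Col2a1 passed in 10 of 12 fits, failing without tumor-bearing osteoblast replicate 2 or 3, and Col9a2 passed in 2. Col10a1, the collagen of hypertrophic chondrocytes, had a difference of 1.59 ± 0.76 (SE), short of the threshold (adjusted p = 0.225, limma), and its fold was 6.02 with tumor-free osteoblast replicate 1 dropped and 1.57 with replicate 3 dropped.

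Among 17 other cartilage matrix genes 4 were higher (4.01% of all tested genes were) and none lower, with a median difference of 1.71. Fmod, a small proteoglycan that binds collagen, was 5.76-fold higher (adjusted p = 0.0466, limma), but passed in 3 of 12 fits with 1 array left out, and its fold was 9.49 when tumor-free osteoblast replicate 1 was dropped and 3.05 when replicate 3 was. Wwp2, a ubiquitin ligase whose gene carries a microRNA of cartilage, was higher by 1.92 ± 0.34 on the log2 scale (SE, adjusted p = 0.0132) and passed in 11 of the 12, failing without tumor-bearing osteoblast replicate 2. Chadl, a chondroadherin-like matrix protein, was 3.16-fold higher (adjusted p = 0.00789, limma) and passed in all 12. Hapln3, a relative of the link protein Hapln1, was 1.89-fold higher (adjusted p = 0.0379) and passed in 2. Ucma, Prg4 and Epyc, which encode a small secreted cartilage protein, the joint lubricant lubricin and the proteoglycan epiphycan, had differences of 3.14 ± 0.93, 2.56 ± 1.07 and 1.93 ± 1.12 (SE) and did not pass (adjusted p = 0.0784, 0.177 and 0.309, limma). These 3 differed 24-fold, 13.4-fold and 9.81-fold without tumor-free osteoblast replicate 1, and 4.10-fold, 2.17-fold and 1.19-fold without replicate 3.

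Of 14 chondrocyte regulators tested 3 were higher (4.01% of all tested genes were) and none lower, with a median difference of 0.55. Ptch1, the hedgehog receptor and a target of that pathway, was 3.97-fold higher (adjusted p = 0.00542, limma). Unlike the members, it was lowest on tumor-free osteoblast replicate 1 (6.35, against 7.13 and 7.06 on replicates 2 and 3). Gli1, of the same list, had a difference of 0.057 ± 0.18 (SE, adjusted p = 0.872, limma). Sox5 and Sox6, the partners of Sox9, were 2.73-fold (adjusted p = 0.00789) and 2.45-fold higher (adjusted p = 0.0295). Ptch1 and Sox5 passed in all 12 fits with 1 array dropped, and Sox6 in 7, failing without tumor-bearing osteoblast replicate 2 or 3, tumor-free osteoblast replicate 2 or 3, or tumor-bearing endothelial replicate 1. Ihh, the hedgehog ligand of the growth plate, had a difference of 0.19 ± 0.16 (SE), short of the threshold (adjusted p = 0.474, limma). Of 16 genes of proteoglycan synthesis and turnover, Fam20b, a kinase that acts on the linkage sugars of proteoglycans, was the 1 gene called (3.74-fold higher, adjusted p = 0.0208, limma), in 9 of the 12 fits. A count of 1 in 16 is near the 4.01% of all tested genes called higher. Fam20b failed without tumor-bearing osteoblast replicate 2 or 3 or tumor-free osteoblast replicate 3. With only the osteoblast arrays in the fit no gene of these lists passed. Tendon and fibrocartilage markers had 3 of 4 tested members higher, where 4.01% of all tested genes were called higher. They are Fmod, already counted in the matrix list, Kera (6.04-fold, adjusted p = 0.00445, limma) and Thbs4 (5.35-fold, adjusted p = 0.0132, limma). Scx, the remaining gene tested, had a log2 difference of -0.16 ± 0.26 (SE, adjusted p = 0.731, limma). Kera, Sox5 and Hapln3 would not have entered the test without the tumor-bearing osteoblast arrays, where they are high. Their calls, which are within the list counts, and their passing with an array dropped therefore support nothing. Kera lay above the array median on the 3 tumor-bearing osteoblast arrays alone. Thbs4, which did not depend on them, passed in 11 of 12 fits with 1 array dropped. The tendon list had a mean of 5.30 to 6.09 on tumor-free and 6.86 to 7.74 on tumor-bearing arrays.

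Against endothelial cells the 9 genes were lower in endothelial cells of both kinds of mice. These contrasts use the osteoblast arrays on which the genes were chosen and are given as a description. In tumor-bearing mice the log2 differences ranged from -6.25 for Acan (76.1-fold) to -3.21 for Matn1 (9.27-fold), with a median of -5.50. All 9 were called and all 9 had groups that did not overlap, where 6.79% of tested genes were called lower and 16.3% were lower without overlap. Matn1 and Matn3 would not have entered the test without the tumor-bearing osteoblast arrays, where they are high. Their calls in either kind of mice therefore support nothing. In tumor-free mice the differences ranged from -3.42 for Hapln1 (10.7-fold) to -0.90 for Cytl1 (1.87-fold), with a median of -2.84. There 5 of the 9 were called (Acan, Sox9, Comp, Hapln1 and Chil1) and 4 had groups that did not overlap (Sox9, Matn1, Comp and Chil1), where 12.7% of tested genes were called lower and 24.2% were lower without overlap. With 1 array left out, 2 to 9 of the 9 were called, beside 2261 to 3838 of all tested genes. All 9 were called without tumor-free osteoblast replicate 3 (3151 genes in all, in place of 3850). The difference of Cytl1 was 1.01-fold and turned to 0.014 without tumor-free osteoblast replicate 1. On tumor-free osteoblast replicate 3, Acan (5.26), Hapln1 (6.08), Cnmd (5.54), Matn3 (4.75) and Cytl1 (5.01) lay below the highest endothelial array of tumor-free mice (6.25, 7.42, 7.47, 5.16 and 6.73).

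**Figure D4:**
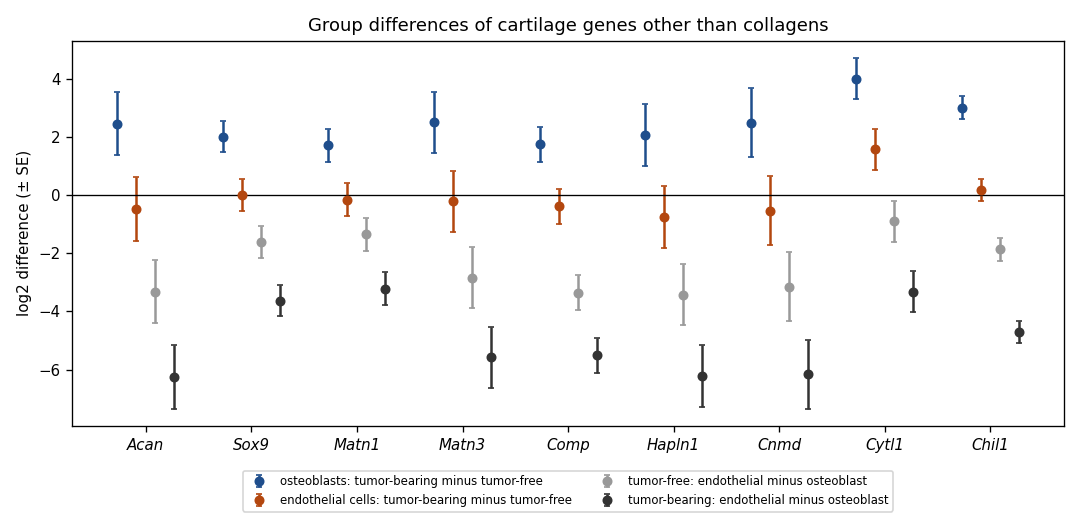
Log2 difference of each gene (with SE from the fit over 12 arrays) in the 4 comparisons between groups. Osteoblast tumor differences lie between 1.71 and 4.02, endothelial tumor differences between -0.75 and 1.59, and the endothelial minus osteoblast differences are all below 0.

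In endothelial cells none of the 9 passed between tumor-bearing and tumor-free mice (limma, 1 with an unadjusted p under 0.05). Sox9, Comp, Cnmd and Cytl1 lay above the array median on at least 3 endothelial arrays. The other 5 entered the test through osteoblast arrays, so for them the test says little about endothelial cells. Few genes passed at all, 0.0241% of those tested. Cytl1 had the largest difference. Its values were 7.63, 7.56 and 7.15 with tumor and 6.73, 5.30 and 5.54 without. The groups did not overlap, as was so for 18.8% of all tested genes in either direction, and it held for 1 of the 9, Cytl1. The group means were 7.45 ± 0.26 and 5.86 ± 0.77 (SD, n = 3 each), a difference of 1.59 ± 0.71 (SE) or 3.01-fold (adjusted p = 0.7, limma). With array quality weights Cytl1 passed (adjusted p = 0.0268, limma), but 449 of all tested genes did, in place of 3. Over the 23 settings tried the adjusted p of Cytl1 ranged from 0.0268 to 1. Tumor-free replicate 1, the highest tumor-free array for Cytl1, also had the higher mean of the immediate early genes (9.65, against 8.76 and 8.64 on replicates 2 and 3 and 9.62 to 9.70 in tumor-bearing mice), and the part of this in the difference was not tested.

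The other 8 genes differed by -0.75 to 0.18 between endothelial cells of tumor-bearing and tumor-free mice, each with an adjusted p of 0.999. Chil1 had means of 5.19 ± 0.22 and 5.01 ± 0.22 (SD, n = 3 each), a difference of 0.18 ± 0.39 (SE). Sox9 had means of 6.41 ± 0.08 and 6.39 ± 0.24. Whether the tumor difference of a gene differs between the cell types was not tested, since the osteoblast difference chose the genes. Matn1 and Matn3 were under the array median on every endothelial array, Hapln1 on 5 of 6, and Sox9 and Cytl1 were above it on all 6.

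Tumor-free endothelial replicate 3 stood apart for several matrix genes. Hapln1 stood at 7.42 there against 4.67 and 4.14 on replicates 1 and 2, and at 4.56 to 4.76 in tumor-bearing mice. Cnmd stood at 7.47 against 5.07 and 4.89, Comp at 7.27 against 5.76 and 5.08, and Acan at 6.25 against 4.75 and 4.54. Of the 9 genes 6 had their highest endothelial value on this array, as did 16% of all tested genes. Cytl1, Matn1 and Chil1 were not highest there. Of the other cartilage matrix genes 8 of 17 had their highest endothelial value on this array, among them Chad (7.82, against 5.12 and 5.07) and Mia (7.77, against 5.63 and 4.62), both secreted proteins of cartilage. The same held for 1 of 8 osteoblast markers, Ibsp (7.20, against 5.58 and 6.24), 4 of 16 hematopoietic markers and none of 6 fibroblast markers. Without this array the differences of Acan, Comp, Hapln1 and Cnmd between tumor-bearing and tumor-free mice were 0.07, 0.23, 0.26 and 0.31 in place of -0.46, -0.38, -0.75 and -0.52.

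**Figure D5:**
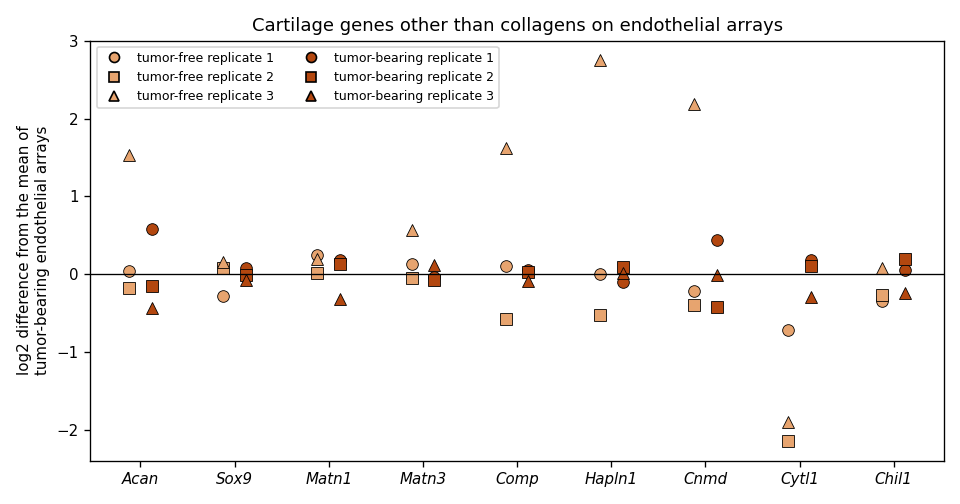
Log2 distance of each endothelial array from the mean of the 3 tumor-bearing endothelial arrays, for the 9 genes. Tumor-free replicate 3 is high for Hapln1, Cnmd, Comp and Acan, and the tumor-free arrays are low for Cytl1.

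The genes whose pattern over the 12 arrays was most like the mean of the 9 were Snorc, Fmod, Clec3a, Pcolce2, Efcab1, Cpa6, Scrg1 and Ucma, with Pearson r from 0.982 to 0.998. The 12 points fall into 4 groups that share libraries with every gene compared, so r is a description. Snorc, a transmembrane proteoglycan of chondrocytes, stood at 11.08, 11.71 and 11.61 in tumor-bearing osteoblasts, at 10.84, 8.69 and 6.30 in tumor-free osteoblasts and at 7.02 on tumor-free endothelial replicate 3. It thus repeats both the order of the tumor-free osteoblast arrays and the high endothelial array. Gene by gene, the closest were Epyc for Acan (r = 0.988) and Cnmd (0.979), Scrg1 for Matn3 (0.995), Mia for Comp (0.99), Pcolce2 for Hapln1 (0.982), Serpina1c for Sox9 (0.993), Krt16 for Matn1 (0.985), Sdc4 for Chil1 (0.993) and Gfpt2 for Cytl1 (0.972). Serpina1c belongs to a family of near-identical copies, so its signal is uncertain. Within the 9, Acan and Cnmd were most alike (r = 0.994), and Cytl1 was least like each of the other 8 (r from 0.712 to 0.864).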

How the data were processed

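The authors' deposited log2 expression table covers 34760 probe sets and 12 arrays and was made with affy per the submitters' processing notes. Its version and normalization are unknown here. Per the labels' protocols RNA was amplified before labelling. Groups came from the sample titles. Probe sets were named through the array's annotation, which gives 1 symbol to 21640, several to 1321 and lists no entry for 11799, and for 954 genes with several the one with the highest mean was used. A gene was tested if it lay above the array median on at least 3 of 12 arrays, which kept 12430 genes and all 9 members. limma 3.58.1 in R 4.3.3 fitted 1 mean per group over the 12 arrays, pooling the spread across groups, while that of tumor-free osteoblasts was wider. Tests are two-sided with Benjamini-Hochberg adjustment at 0.05. They were tested on simulated data in which a gene had the same spread in every group. That setting differs from these arrays, so it cannot speak to the wider spread of tumor-free osteoblasts. No 2 arrays of 66 pairs held identical values. The members, lists and rules were chosen with earlier results of these data known. Named beyond the members are the 3 largest called genes of each cartilage list, 8 fixed genes and the genes most like the members. Hapln3, Kera, Thbs4, Scx, Gli1, Chad, Mia, Ibsp, Col1a1, Alpl, Dmp1, Ptprc, Lyz2, Tyrobp, Elane, Klf1 and Mepe were named after their values were seen.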

Additional observations from a re-analysis of the deposited data

How the results depend on the processing

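Counts of called genes moved with the processing. Between endothelial cells of tumor-bearing and tumor-free mice 3 genes passed, 0 with the replicate block, quantile normalization, median centering, no filter, the 70th percentile filter or an intensity trend with robust estimation (739, 895, 1186, 568 and 848 with an unadjusted p under 0.05 for the last 5 in that order, and 854 with the block, limma), 7 with the mean over probe sets, 449 with array weights, and 0 to 56 with 1 array left out. Chosen after seeing the data, leaving out the tumor-free arrays numbered 1 gave 156 and leaving out those numbered 2 and 3 gave 0 (413 with an unadjusted p under 0.05). In osteoblasts the 570 became 349 with the replicate block, 955 with no filter, 0 with only the groups compared (1820 with an unadjusted p under 0.05), 100 to 1547 with 1 array left out, and 1401 and 942 in the 2 added settings. Between the cell types the 3850 of tumor-free mice became 6564 with no filter, 1911 with only the groups compared, 2261 to 3838 with 1 array left out and 2121 without the tumor-free arrays numbered 2 and 3, and the 1854 of tumor-bearing mice became 3733 with array weights and 1304 to 2352 with 1 array left out. The cause was not tested.

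With median centering the calls between the cell types of tumor-free mice were 2852 higher and 785 lower in endothelial cells, in place of 2266 and 1584, as the median of all genes moved from 0.030 to 0.18. With quantile normalization the osteoblast calls were 368 higher and 184 lower, in place of 499 and 71. Over all tested genes same-numbered arrays did not deviate together (correlations of deviations from -0.26 to 0.0948). Such correlations cannot show whether same-numbered arrays share mice or a batch. The mean of the immediate early genes fell in the order 1, 2, 3 in tumor-free osteoblasts (9.15, 8.63 and 8.13) and tumor-free endothelial cells (9.65, 8.76 and 8.64). The block keeps 338 of the 570 osteoblast calls.

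Members' endothelial differences near 0 changed sign: with 1 array left out they ran from -0.79 to 0.073 for Acan, -0.12 to 0.10 for Sox9, -0.24 to 0.0081 for Matn1, -0.86 to 0.23 for Comp, -1.38 to 0.26 for Hapln1 and -0.98 to 0.31 for Cnmd. Sox9 was -0.028 with median centering, -0.0063 with array weights and -0.12 without the tumor-free arrays numbered 1. Without those numbered 2 and 3 Cnmd was 0.22 there, and in osteoblasts Matn3 was -0.38, Col10a1 -0.40 and Epyc -0.79. In osteoblasts the other 8 members kept their sign under all 23 settings. Precision is limited by having 3 arrays a group.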
